A study of Mus musculus with 12 samples.

Results

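Interferons are secreted proteins that warn cells of a virus. Type I interferons bind the receptor pair Ifnar1 and Ifnar2, interferon gamma binds Ifngr1 and Ifngr2, and Janus kinases on the receptor tails phosphorylate STAT proteins. Stat2 joins Irf9 in a complex that binds the interferon-stimulated response element, a promoter sequence found before many antiviral genes. Megakaryocytes, the bone marrow cells that shed platelets, carry these receptors, and the antiviral programme is known in platelets during infection. Glucocorticoids are steroid hormones that act through a nuclear receptor and are used as anti-inflammatory drugs.

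The genes described here are 39 interferon-stimulated and interferon-signalling genes, taken by name from a list of antiviral effectors, RNA sensors, transcription factors and receptors. Each was read from probe sets that carry exactly 1 gene symbol, and the probe set with the highest mean over the 12 arrays stood for the gene. Of the 39 genes, 38 had such a probe set, out of 30142 named genes on the array, and Ifi44 is not analysed here. After a filter on dim signals, 37 of the 38 were tested among 24265 genes, and Oas2 was measured but not tested.

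The RNA came from megakaryocytes grown in vitro from bone marrow hematopoietic stem cells of male C57BL/6 mice. The dexamethasone group had 6 cultures exposed for 6 h to 100 nM dexamethasone, a synthetic glucocorticoid. The vehicle group had the other portion of the same 6 cultures, exposed for 6 h to the vehicle alone. All cells of both groups had been kept for 3 days in 100 ng per ml thrombopoietin and then overnight in 10% charcoal-stripped serum, which lowers steroid hormones, and had been purified on an albumin gradient. Cultures are called here by replicate number, 1 to 6, and those numbers pair the arrays. The age of the mice was not given in the sources used here, nor whether each culture came from its own animal. The p-values set the mean difference within cultures against its spread from culture to culture, which may not be a spread between animals. The labels name no added interferon in either group.

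Each of the 12 arrays gave 1 deposited log2 value per probe set. Differences below are dexamethasone minus vehicle on that scale, and 1 unit is a doubling of the deposited value. Array medians lay between 5.57 and 5.67. The negative control probe sets of the array had a median between 6.15 and 6.39, called the background median here, and a 95th percentile between 9.98 and 10.39. All 12 measured megakaryocyte markers lay above that 95th percentile on all 12 arrays, among them platelet factor 4 (Pf4) at 18.95 ± 0.04 with dexamethasone and 18.94 ± 0.03 with vehicle (SD, n = 6 each). Of these 12 markers 2 were higher, Clec1b (change 0.24) and Gp9 (0.44), and 1 was lower, the platelet tubulin gene Tubb1 (-1.14, adjusted p = 4.71e-06). That is 16.7% higher and 8.33% lower, against 7.39% and 4.56% of all genes tested. The glucocorticoid response was present, with 9 of 10 known receptor targets higher, among them Tsc22d3, whose protein restrains inflammatory signalling, at 11.39 ± 0.14 with dexamethasone and 8.91 ± 0.11 with vehicle (SD, n = 6 each). In bulk RNA, fewer cells of a type and less RNA per cell cannot be told apart.

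Interferon-stimulated response elements set apart many promoters of this family, so stretches of promoter are shown for the genes on which the results turn. Each line gives the 160 bases before the annotated transcription start, 5′ to 3′ on the gene's strand, from RefSeq on mouse build GRCm38.p6. The genome build behind the array's own probe design was not given in the sources used here. Capitals mark every match to the core of the element, which is GAAA, any 2 bases and GAAA again, read on either strand, and overlapping matches run together. The first set holds 4 of the 5 genes that fell with dexamethasone and carry the core, 2 of them from the Ifit cluster on chromosome 19. The fifth, Ddx60, had signals below background and is not shown.
Ifit1 (chr19:34640729-34640888, + strand): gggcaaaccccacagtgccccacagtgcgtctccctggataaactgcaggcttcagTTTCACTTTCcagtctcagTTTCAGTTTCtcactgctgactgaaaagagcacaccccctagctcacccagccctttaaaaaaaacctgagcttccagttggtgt
Ifit3 (chr19:34583369-34583528, + strand): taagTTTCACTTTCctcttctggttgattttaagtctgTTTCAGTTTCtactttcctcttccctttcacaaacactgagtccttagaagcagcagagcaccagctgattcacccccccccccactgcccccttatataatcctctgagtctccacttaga
Isg15 (chr4:156200819-156200978, - strand): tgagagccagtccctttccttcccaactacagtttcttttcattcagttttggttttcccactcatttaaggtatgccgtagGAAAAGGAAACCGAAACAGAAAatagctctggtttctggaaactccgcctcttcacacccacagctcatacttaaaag
Gbp2 (chr3:142620503-142620662, + strand): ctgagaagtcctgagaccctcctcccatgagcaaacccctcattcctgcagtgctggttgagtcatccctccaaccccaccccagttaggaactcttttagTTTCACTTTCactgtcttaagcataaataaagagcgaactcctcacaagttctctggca

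Ifit2 also fell and has 2 annotated starts, neither with the core in the window searched, and Trim25, the gene that rose, had none either.
Ifit2, first start (chr19:34550534-34550693, + strand): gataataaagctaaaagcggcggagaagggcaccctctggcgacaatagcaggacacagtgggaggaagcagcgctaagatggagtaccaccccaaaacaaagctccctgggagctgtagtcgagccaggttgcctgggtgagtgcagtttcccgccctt
Ifit2, second start (chr19:34550928-34551087, + strand): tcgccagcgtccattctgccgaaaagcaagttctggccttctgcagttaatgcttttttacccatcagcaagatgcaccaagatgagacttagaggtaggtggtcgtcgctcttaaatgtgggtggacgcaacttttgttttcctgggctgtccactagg
Trim25 (chr11:88999243-88999402, + strand): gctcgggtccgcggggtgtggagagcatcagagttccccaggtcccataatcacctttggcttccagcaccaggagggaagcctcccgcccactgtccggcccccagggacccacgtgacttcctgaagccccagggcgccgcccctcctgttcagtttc

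Oas1a and Bst2 are shown because they carry the core and did not pass the test.
Oas1a (chr5:120907526-120907685, - strand): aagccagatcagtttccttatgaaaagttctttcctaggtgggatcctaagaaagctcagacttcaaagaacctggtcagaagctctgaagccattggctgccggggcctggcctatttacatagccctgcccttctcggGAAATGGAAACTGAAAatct
Bst2 (chr8:71537473-71537632, - strand): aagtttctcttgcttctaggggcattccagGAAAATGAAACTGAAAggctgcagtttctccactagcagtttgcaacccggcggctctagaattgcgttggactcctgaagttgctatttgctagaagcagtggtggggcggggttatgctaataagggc

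Dexamethasone lowered a small group of antiviral effector genes and raised 1, while the receptors, RNA sensors and transcription factors of the pathway did not pass the test. Of the 37 genes tested, 7 were lower, 1 was higher and 29 did not pass an adjusted p of 0.05 (limma, Benjamini-Hochberg over all genes tested). The 8 genes are 21.6% of those tested, where 12.0% of all genes tested passed in either direction. Lower calls made up 18.9% of the 37, against a background of 4.56% over all genes, and the single higher call made up 2.70%, against a background of 7.39%. The genes were listed with earlier results of these data known, so these shares are a description. The median change of the 37 was -0.041, beside -0.013 for all genes tested, with 24 estimates below 0 and 13 above.

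All 8 called genes were effectors, 8 of the 22 effectors tested, which is 36.4%, against 12.0% of all genes tested. None came from the 3 RNA sensors, 8 transcription factors and 4 receptors in limma. Groups this small would hold few calls at a share of 12.0%, so the absence of calls does not set them apart from all genes. At an unadjusted p under 0.05 those 3 groups held 0, 3 and 1 genes, and the 37 held 17. The share of all genes at that unadjusted level was not computed, and it is at least the 12.0% that passed after adjustment. Unadjusted counts, here and below, therefore have no background beside them. Across single cultures, 8 of the 38 measured genes were lower in all 6 cultures, against 8.32% of all genes tested, and 4 were higher in all 6, against 11.2%. The 6 dexamethasone arrays did not overlap the 6 vehicle arrays for 2 genes that were lower, Ifit1 and Ifit2, where 2.63% of all genes tested had such a gap, and for 2 that were higher, Trim25 and Irf2, where 4.10% had one. Among the 27 genes above the background median on all 12 arrays, 5 were lower, 1 was higher and 21 did not pass. Of those lower genes, Isg15 exceeded the 95th percentile of the negative controls on all 12 arrays. Ifit1, Ifit2, Ifit3 and Gbp2 exceeded it on 0 of 12. A further 9 genes lay below that median on all 12 arrays, namely Mx1, Oas2, Oas3, Oasl1, Oasl2, Ddx60, Gbp3, Irf5 and Irf8, and their values are weak evidence of either presence or change.

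**Figure D1:**
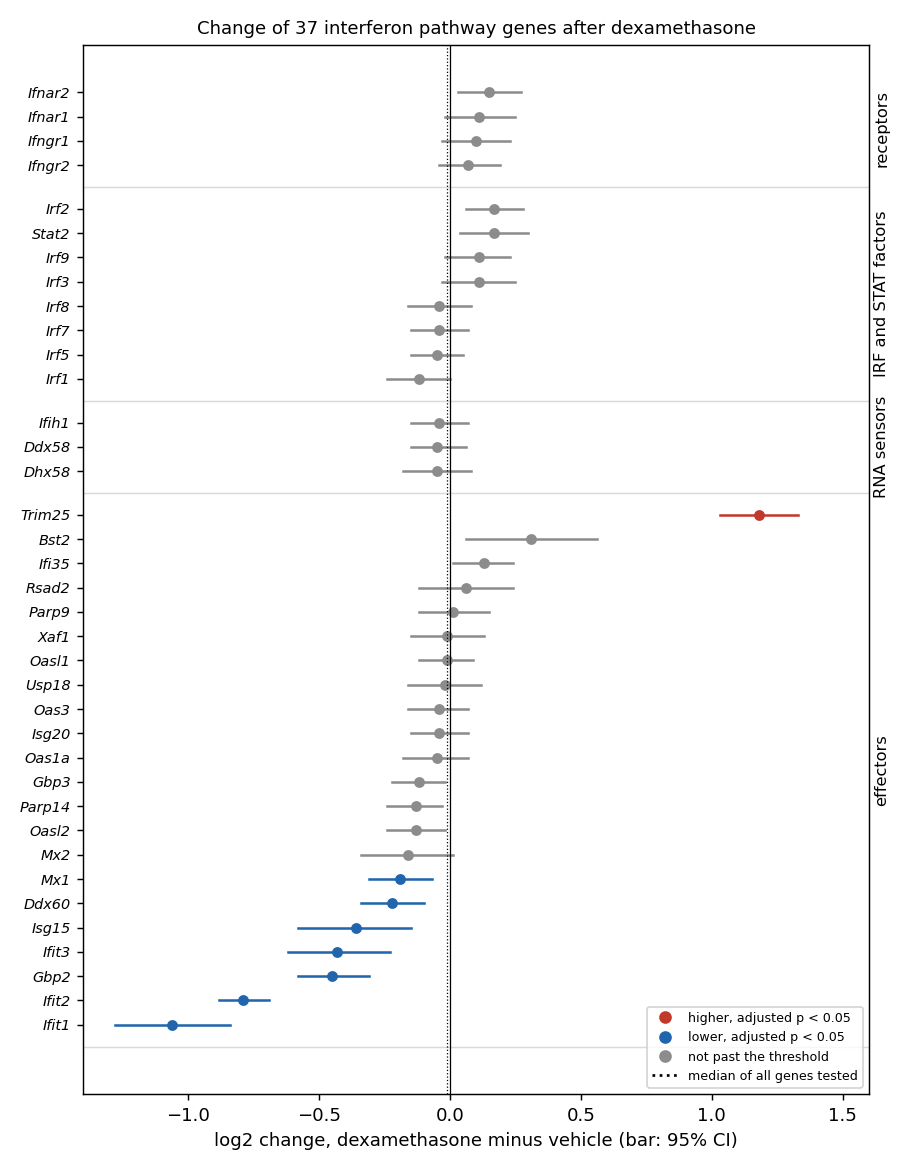
Change of the 37 tested genes, dexamethasone minus vehicle (log2, horizontal axis), with 95% confidence intervals from limma, grouped by role from receptors at the top to effectors at the bottom; the dotted line is the median of all genes tested, -0.013. The 8 coloured points are all effectors, from Ifit1 at -1.06 to Trim25 at 1.18, and the 4 receptors sit between 0.07 and 0.15.

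The Ifit genes encode tetratricopeptide repeat proteins that bind viral RNA or proteins and block translation, and Ifit1 and Ifit2 had the largest falls of the 37 genes. Ifit1 recognises RNA whose cap lacks 2'-O methylation. It measured 7.05 at the lowest, 7.73 at the median and 7.89 at the highest with dexamethasone, against 8.32, 8.60 and 9.01 with vehicle. Every dexamethasone array thus lay below every vehicle array. The mean was 7.59 ± 0.34 with dexamethasone and 8.65 ± 0.26 with vehicle (SD, n = 6 each), a change of -1.06 (SE 0.09, adjusted p = 0.000153), or 2.09-fold lower. By culture the change ran from -1.47 in culture 2 to -0.71 in culture 5.

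Ifit2, which forms complexes with the other Ifit proteins and is linked to cell death, moved with the least spread between cultures. Its values were 7.88 at the lowest, 8.03 at the median and 8.18 at the highest with dexamethasone, against 8.64, 8.81 and 9.0 with vehicle, and these ranges did not overlap. The change was -0.79 (SE 0.04, adjusted p = 9.86e-06), 1.72-fold lower, and single cultures lay between -0.84 and -0.67. Its level averaged 8.02 ± 0.12 with dexamethasone and 8.81 ± 0.13 with vehicle (SD, n = 6 each).

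Ifit3, which stabilises Ifit1 on its RNA target as described for the human proteins, fell less. It ran from 6.48 over a median of 6.62 to 6.93 with dexamethasone, and from 6.91 over a median of 7.10 to 7.26 with vehicle. The ranges touch, since the highest dexamethasone array passed the lowest vehicle array, but within cultures the value was lower in 6 of 6. The change was -0.43 (SE 0.08, adjusted p = 0.0124), with single cultures from -0.66 to -0.11. Ifit3b, a close copy of Ifit3 beside it in the genome, averaged 5.76 with dexamethasone and 5.98 with vehicle and did not pass (change -0.22, adjusted p = 0.167). Cross-hybridisation between the copies was not tested.

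Isg15 encodes a small protein that is joined to other proteins in the manner of ubiquitin and is also secreted. It was among the 3 genes here whose signal lay above the 95th percentile of the negative controls on all 12 arrays. Its level was 10.39 at the lowest, 10.46 at the median and 10.88 at the highest with dexamethasone, against 10.71, 10.88 and 11.14 with vehicle. These ranges overlap through culture 1, where the dexamethasone array was 0.08 higher than its vehicle partner, while the other 5 cultures were 0.18 to 0.66 lower. The mean change was -0.36 (SE 0.09, adjusted p = 0.0403), and the call did not hold in most fits that left out 1 culture. Without replicate 2, 3, 4, 5 or 6 the adjusted p was 0.109, 0.113, 0.110, 0.0762 or 0.0596, at changes between -0.40 and -0.30. Usp18, the protease that removes Isg15 from its targets and also damps the type I receptor, averaged 7.62 ± 0.11 with dexamethasone and 7.64 ± 0.11 with vehicle (SD, n = 6 each) and did not pass (adjusted p = 0.888).

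Gbp2 encodes a guanylate-binding protein, a GTPase that coats intracellular microbes and is a classical target of interferon gamma. It measured 7.97 at the lowest, 8.23 at the median and 8.48 at the highest with dexamethasone, against 8.32, 8.62 and 8.90 with vehicle. Those ranges overlap across cultures, yet within each of the 6 cultures the dexamethasone array was lower, by 0.31 to 0.65. The change was -0.45 (SE 0.06, adjusted p = 0.00151), and it held when any 1 culture was left out. Its neighbour Gbp3 lay below the background median on all 12 arrays, with a change of -0.12 (adjusted p = 0.117).

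Mx1 and Ddx60 also passed, with small changes in signals below the background median on every array. Mx1, a dynamin-like GTPase that blocks influenza virus, ran from 5.41 over a median of 5.49 to 5.65 with dexamethasone, and from 5.52 over a median of 5.71 to 5.84 with vehicle. The change was -0.19 (SE 0.05, adjusted p = 0.0484), lower in 5 of 6 cultures. Ddx60, a helicase that promotes RNA sensing, ran from 5.34 over a median of 5.48 to 5.58 with dexamethasone, and from 5.57 over a median of 5.69 to 5.86 with vehicle. Its change was -0.22 (SE 0.05, adjusted p = 0.0316), lower in 6 of 6 cultures. Both sets of ranges overlap, and C57BL/6 mice are known to carry a defective Mx1 gene. Leaving out replicate 1, 2, 4, 5 or 6 ended the call of Mx1, with an adjusted p of 0.0942 to 0.132. Leaving out replicate 1, 2, 3, 4 or 6 ended that of Ddx60, with 0.0684 to 0.0896.

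Trim25 was the 1 gene of the list that rose. It encodes an E3 ubiquitin ligase that modifies the RNA sensor RIG-I and also acts as an Isg15 ligase. Its level was 12.26 at the lowest, 12.33 at the median and 12.39 at the highest with dexamethasone, against 10.80, 11.21 and 11.29 with vehicle. The 2 groups lay far apart, and the spread was narrower with dexamethasone (12.33 ± 0.05) than with vehicle (11.15 ± 0.18; SD, n = 6 each). The change was 1.18 (SE 0.07, adjusted p = 9.86e-06), or 2.27-fold higher, and it was higher in 6 of 6 cultures, by 1.04 to 1.49. Trim25 and its conjugation partner Isg15 thus differed in direction.

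**Figure D2:**
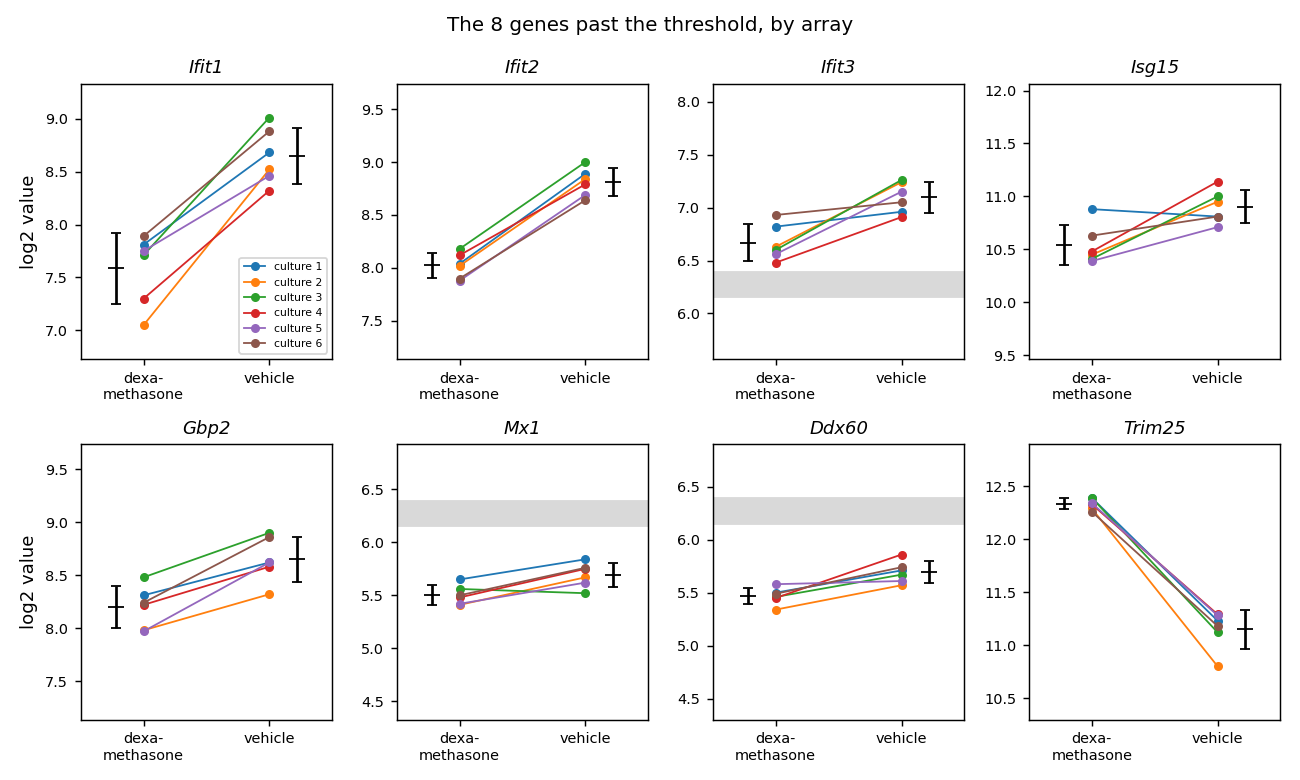
Deposited log2 value (vertical axis, each panel spanning its own range) of the 8 called genes on the 12 arrays, dexamethasone left and vehicle right, with a line for each of the 6 cultures and bars for mean ± SD; the grey band is the range of the background median over the arrays, 6.15 to 6.39. Ifit1 and Ifit2 fall in all 6 cultures with no overlap, Trim25 rises in all 6, Isg15 falls in 5, and Mx1 and Ddx60 lie below the band.

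The remaining effectors that were tested, 14 of 22, did not pass. Bst2, or tetherin, holds budding virus particles at the cell surface, and it averaged 10.17 ± 0.13 with dexamethasone and 9.86 ± 0.29 with vehicle (SD, n = 6 each). Its change of 0.31 (95% interval 0.06 to 0.56, adjusted p = 0.112) was positive in 5 of 6 cultures, and without replicate 1 it was 0.41 and passed (adjusted p = 0.0400). Rsad2, or viperin, makes a chain-terminating nucleotide, and its change was 0.06 (interval -0.12 to 0.24), positive in 3 cultures and negative in 3. Parp14, a mono-ADP-ribosyltransferase, was negative in 6 of 6 cultures at -0.13 (interval -0.24 to -0.03, adjusted p = 0.0913), while its relative Parp9 had a change of 0.01 (interval -0.12 to 0.15). Ifi35 was positive in 6 of 6 cultures at 0.13 (interval 0.01 to 0.24, adjusted p = 0.141).

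The 2'-5'-oligoadenylate synthetases detect double-stranded RNA and activate RNase L, and none passed. Oas1a, the 1 member of this family here above the background median on all 12 arrays, averaged 10.37 ± 0.11 with dexamethasone and 10.43 ± 0.20 with vehicle (SD, n = 6 each), a change of -0.05 (interval -0.18 to 0.07). Oas2 ran from 4.55 over a median of 4.69 to 4.79 with dexamethasone and from 4.57 over a median of 4.76 to 4.88 with vehicle, too dim to enter the test. Oas3, Oasl1 and Oasl2 had changes of -0.04, -0.01 and -0.13. Among the others, Mx2 (-0.16), Isg20 (-0.04), an exonuclease that degrades viral RNA, and Xaf1 (-0.01), an apoptosis factor, lay within intervals that include 0. A fall of the size of Ifit1 therefore lies outside the 95% interval of each of these genes that was tested.

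The 3 RNA sensors gave narrow intervals around 0. Ddx58, which encodes RIG-I, had a difference of -0.05 (interval -0.15 to 0.06). Ifih1, which encodes MDA5, had a difference of -0.04 (interval -0.15 to 0.07), and Dhx58, which encodes the regulator LGP2, of -0.05 (interval -0.18 to 0.08). All 3 lay above the background median on all 12 arrays. These genes are themselves interferon-stimulated, and their difference was under 0.10 in each case, beside -1.06 for Ifit1.

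The interferon regulatory factors and Stat2 carry the signal to the promoters, and none of the 8 passed. Irf9, the DNA-binding subunit of the response complex, ran from 7.31 over a median of 7.40 to 7.49 with dexamethasone and from 7.0 over a median of 7.30 to 7.47 with vehicle (change 0.11, adjusted p = 0.25). Stat2, its partner, ran from 8.80 over a median of 8.92 to 9.06 with dexamethasone and from 8.49 over a median of 8.78 to 8.92 with vehicle (change 0.17, adjusted p = 0.101). In both genes the groups overlap, and 5 of 6 cultures were positive.

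Irf7, the factor that amplifies interferon alpha genes and is itself strongly induced by interferon, stayed close to background. It ran from 5.96 over a median of 6.09 to 6.19 with dexamethasone and from 6.03 over a median of 6.07 to 6.27 with vehicle, above the background median on 1 array of each group. Its change was -0.04 (interval -0.15 to 0.07, adjusted p = 0.627). Irf2, described as a repressor that competes with Irf1 at shared sites, was positive in 6 of 6 cultures with no overlap, 10.27 ± 0.09 with dexamethasone and 10.10 ± 0.05 with vehicle (SD, n = 6 each). At 0.17 (interval 0.06 to 0.28) it missed the threshold (adjusted p = 0.0588). Irf1 itself had a change of -0.12 (adjusted p = 0.175), negative in 5 of 6 cultures. Irf3, the factor activated by the sensors, had a change of 0.11 (adjusted p = 0.282), and Irf5 and Irf8 were below the background median on all 12 arrays.

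All 4 receptor genes had estimates above 0 and none passed. Ifnar2 ran from 11.55 over a median of 11.68 to 11.70 with dexamethasone and from 11.27 over a median of 11.56 to 11.59 with vehicle, a change of 0.15 (interval 0.03 to 0.27, adjusted p = 0.112) that was positive in 6 of 6 cultures. Ifnar1 ran from 8.81 over a median of 8.95 to 9.06 with dexamethasone and from 8.73 over a median of 8.79 to 8.99 with vehicle (change 0.11, interval -0.02 to 0.25). The groups overlapped narrowly for Ifnar2 and widely for Ifnar1.

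For interferon gamma, Ifngr1 ran from 9.02 over a median of 9.16 to 9.31 with dexamethasone and from 8.74 over a median of 9.09 to 9.23 with vehicle (change 0.10, interval -0.03 to 0.23). Ifngr2 ran from 7.80 over a median of 8.09 to 8.14 with dexamethasone and from 7.77 over a median of 7.95 to 8.15 with vehicle (change 0.07, interval -0.04 to 0.19). The lower bounds of the 4 intervals lay between -0.04 and 0.03.

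**Figure D3:**
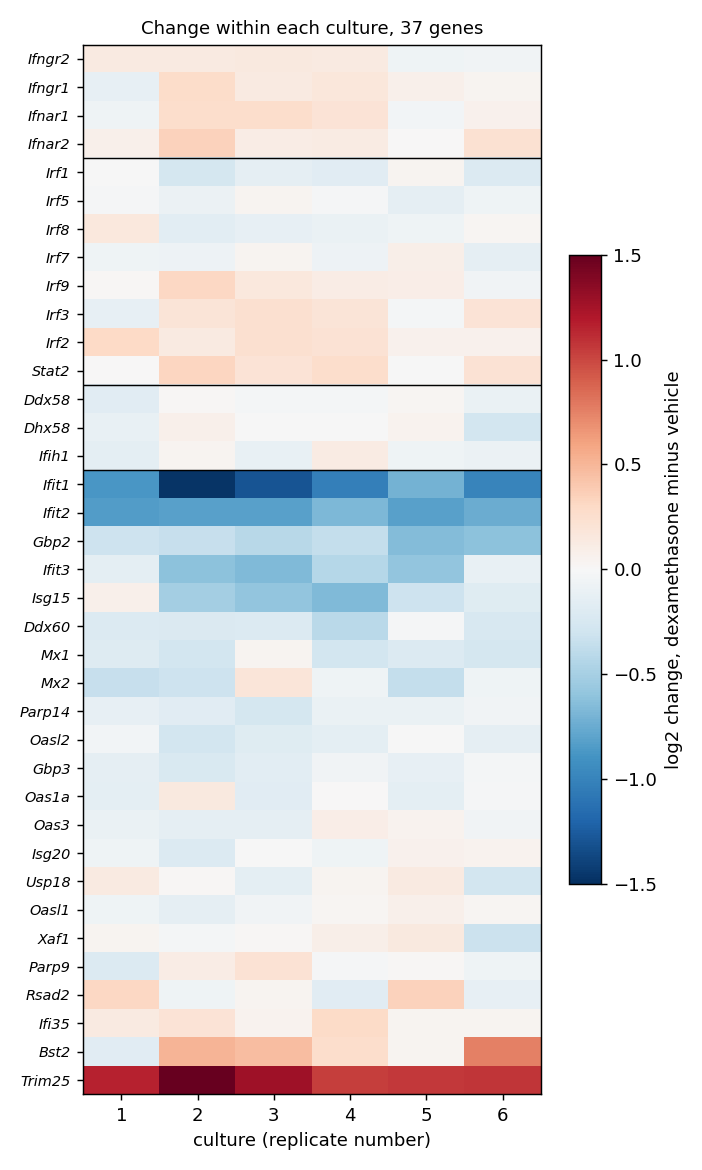
Change within each of the 6 cultures (horizontal axis, replicate number) for the 37 tested genes (vertical axis, grouped from receptors at the top to effectors at the bottom), dexamethasone minus vehicle in log2 units by colour, blue lower and red higher. Ifit1, Ifit2, Ifit3 and Gbp2 are blue and Trim25 is red in all 6 columns, and most other cells are pale.

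Cultures differed in the size of the response. The median change of the 37 genes lay between -0.07 and -0.008 in single cultures, and 19 to 25 of the 37 were negative in each. Culture 2 had the largest fall of Ifit1 (-1.47) and the largest rise of Trim25 (1.49), and without replicate 2 the changes were -0.98 and 1.12. Culture 2 also had the largest fall of the neutrophil alarmin genes S100a9 (-1.86) and S100a8 (-1.33). In cultures 1, 3, 4, 5 and 6 the changes of S100a9 were -0.98, -0.67, -0.48, -0.37 and -0.27. Those of Ifit1 were -0.87, -1.3, -1.02, -0.71 and -0.99 in the same order. Over 16 alternatives S100a9 passed in 10, S100a8 in 7 and the neutrophil gene Ngp in 0. The neutrophil gene Camp passed as lower in 15, with changes of -0.54 to -0.43. Over all cultures S100a9 averaged 11.77 ± 1.49 with dexamethasone and 12.54 ± 1.01 with vehicle (SD, n = 6 each), with an adjusted p of 0.0292 in the paired fit and 0.488 without the replicate block. Of 15 neutrophil markers tested, 4 were lower and 2 higher, which is 26.7% and 13.3%, against 4.56% and 7.39% of all genes tested. The log2 of their summed values ran from 10.80 to 13.90 with dexamethasone and from 11.92 to 14.57 with vehicle. Of the 16 neutrophil markers measured, 4 were below the background median on all 12 arrays. Their part in the fall of the Ifit genes was not tested.

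Plasmacytoid dendritic cells are strong producers of type I interferon. Of their 8 markers tested 0 passed in limma, while 3 were lower at an unadjusted p under 0.05, and 6 estimates were below 0 and 2 above. Siglech, above the background median on 2 of 12 arrays, was at 6.06 ± 0.07 with dexamethasone and 6.11 ± 0.15 with vehicle (SD, n = 6 each). Tcf4, above it on all 12, was at 7.88 ± 0.09 with dexamethasone and 8.01 ± 0.12 with vehicle (SD, n = 6 each). Its change was -0.13 (adjusted p = 0.0861), negative in 6 of 6 cultures, and it passed in 2 of 16 alternatives. The summed level of these dendritic cell markers ran from 9.25 to 9.35 with dexamethasone and from 9.30 to 9.42 with vehicle. Of the 9 measured, 5 were below the background median on all 12 arrays. Of 16 monocyte and macrophage markers 1 was lower, which is 6.25%, against 4.56% of all genes tested. Of 11 T and NK cell markers none passed in limma, with 2 at an unadjusted p under 0.05.

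Promoter letters were searched in the 250 bases before each annotated start, and 31 of the 39 genes had a window. The response element core, on either strand, was present in 12 of the 31, where 3.46% of 27025 mouse genes hold it in a window. It was found in 5 of the 6 lower genes with a window (Ifit1, Ifit3, Isg15, Gbp2 and Ddx60), in 0 of 1 higher gene and in 7 of 24 others. Those 7 were the effectors Bst2, Gbp3, Oas1a, Oas3 and Rsad2 and the transcription factors Irf2 and Stat2. The 6 lower genes were all effectors, whereas the 24 others also held receptors, RNA sensors and transcription factors. Among the effectors of the 24, Ifi35, Isg20, Oasl1, Oasl2 and Xaf1 had no core. The 2 shares thus differ in gene class as well as in response. The core was thus also present in genes that did not pass, and in the Oas1a and Bst2 stretches printed above, overlapping matches stand as they do in Isg15.

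The positions of the core also differed among the genes that fell. It lay 104 to 95 and 85 to 76 bases before the start of Ifit1, 156 to 147 and 122 to 113 bases before that of Ifit3, and 59 to 50 bases before that of Gbp2. In Isg15, 3 overlapping matches filled the stretch from 78 to 57 bases before the start. The STAT palindrome TTCNNNGAA, which reads the same on both strands, was found in 8 of the 31, where 8.13% of all genes hold it, among them Irf1, Irf8 and, at 241 to 233 bases before a start, Ifit2. In Bst2 a STAT match overlapped a core match. The glucocorticoid response element, searched on both strands as G, any base, ACA, any 3 bases, TGT, any base and C, was in 0 of the 31 genes and in 0.44% of all genes. A match is a description of letters and not of binding, and no match says only that these letters are not in these windows.

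**Figure D4:**
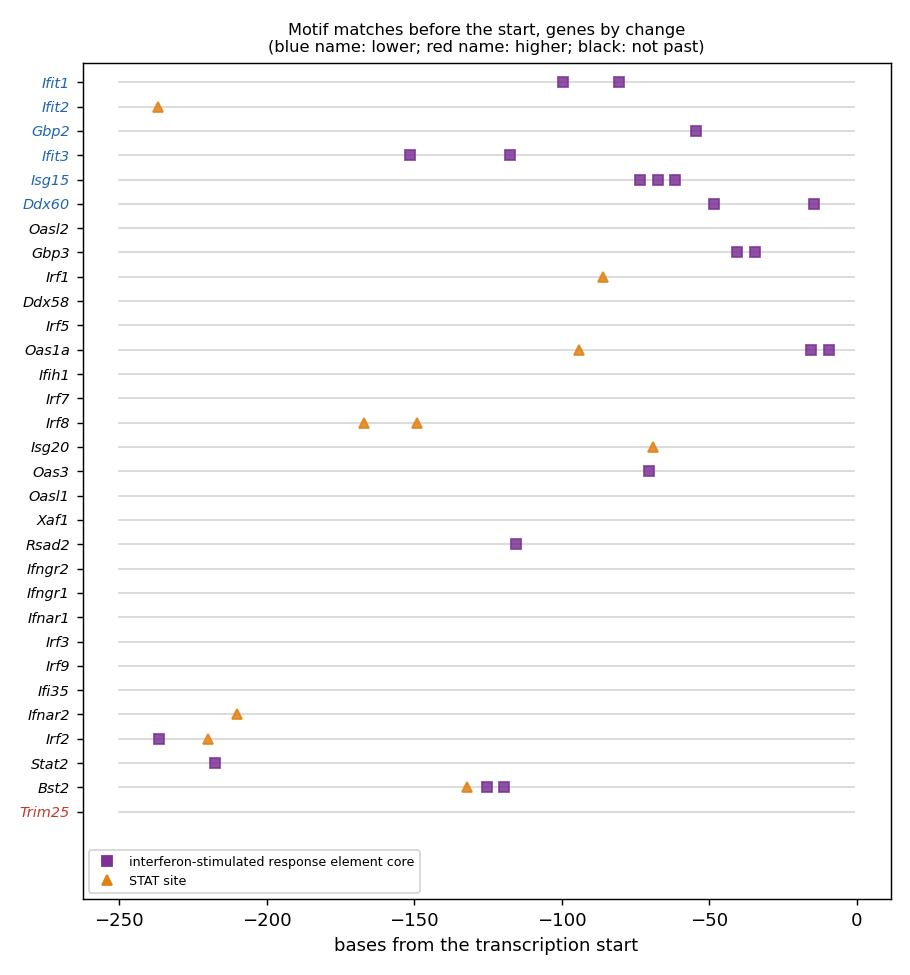
Positions of matches to the response element core (squares) and the STAT palindrome (triangles) in the 250 bases before the start (horizontal axis, bases from the transcription start) of the 31 genes with a window, sorted from the largest fall at the top to the largest rise at the bottom, each match drawn at its centre. Of the 6 blue genes, which were lower, 5 carry the core, and so do 7 of the 24 black genes, which did not pass. The blue genes are all effectors, and the black genes also include receptors, RNA sensors and transcription factors.

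Around these genes, the wider pathway moved in both directions. Of the list of interferons and related cytokines, 8 of 11 measured passed the filter on dim signals and were tested. Of the 11, 5 lay below the background median on all 12 arrays, and only 1, Il15, lay above it on all 12. In limma 1 was higher and 0 lower, which is 12.5% and 0.0%, against 7.39% and 4.56% of all genes tested. Of the 8 tested, 6 estimates were below 0 and 2 above, and 3 genes were lower at an unadjusted p under 0.05. The higher gene was Il15, a cytokine for natural killer cells, at 9.30 ± 0.12 with dexamethasone and 9.09 ± 0.06 with vehicle (SD, n = 6 each; change 0.21, adjusted p = 0.0355). Leaving out replicate 1, 3, 4, 5 or 6 took its adjusted p to 0.062 to 0.106. None of the genes for interferon alpha, beta or lambda that were tested passed, and Ifng was too dim to test. The largest change among them was that of Ifna4, at -0.35 (interval -0.60 to -0.11, adjusted p = 0.0671). Ifna4 lay above the background median on 2 dexamethasone and 5 vehicle arrays. The signals of these interferon genes, near or below the background median, are weak evidence of either presence or change.

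Among receptor kinases, STATs and feedback genes, 3 of 13 tested were higher and 3 lower, 23.1% in each direction, against 7.39% higher and 4.56% lower over all genes tested. Jak1, the kinase shared by both interferon receptors, was at 13.91 ± 0.21 with dexamethasone and 13.08 ± 0.09 with vehicle (SD, n = 6 each), a change of 0.83 (SE 0.06, adjusted p = 6.11e-05) with no overlap. The kinase Jak2, used by the interferon gamma and thrombopoietin receptors, was lower by 0.21 (adjusted p = 0.0237), a call that did not hold without replicate 1, 3, 4, 5 or 6 (adjusted p 0.0601 to 0.0686). Tyk2, the type I partner of Jak1, had a change of 0.14 (adjusted p = 0.177). The phosphatase gene Ptpn1, which acts on Jak2 and Tyk2, was higher by 0.37 (adjusted p = 0.000679), and Ptpn6, which encodes SHP-1, had a change of -0.39 (adjusted p = 0.00488). Il10rb, a receptor chain for interferon lambda beside Ifnar1 on chromosome 16, was higher by 0.22 (adjusted p = 0.0177), and Irf2bp2, a corepressor partner of Irf2, had a change of -0.22 (adjusted p = 0.0103). Without replicate 2, 4 or 5 the call of Il10rb ended (adjusted p 0.052, 0.0598 and 0.0521).

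Nucleic acid sensing held the largest change among these wider pathway lists. Of 21 genes tested, 6 were higher and 2 lower, which is 28.6% and 9.52%, against 7.39% and 4.56% of all genes tested. Tlr7, the endosomal receptor for single-stranded RNA that is known to function in platelets, ran from 11.50 to 11.96 with dexamethasone and from 9.89 to 10.45 with vehicle, 3.01-fold higher (change 1.59, SE 0.05, adjusted p = 4.65e-07). Samhd1, which depletes nucleotides, was higher by 0.69 (adjusted p = 0.000114), and Rnf125, a ligase that directs RIG-I to degradation, by 0.50 (adjusted p = 0.00086). The adaptor gene Ticam1 was higher by 0.37 (adjusted p = 0.0313), and without replicate 1, 2, 4 or 6 it did not pass (adjusted p 0.0549 to 0.0817). Tlr8 (0.23) and Ticam2 (0.20) were also higher, both below the background median on all 12 arrays. Tlr8 was higher in 5 of 6 cultures and Ticam2 in 6 of 6, but their calls did not hold in most fits that left out 1 culture. That of Tlr8 ended without replicate 1, 2, 4, 5 or 6 (adjusted p 0.0797 to 0.135), and that of Ticam2 without replicate 1, 2, 3, 4 or 6 (adjusted p 0.0514 to 0.0616). Mavs, the adaptor on mitochondria that RIG-I and MDA5 act through, was lower by 0.36 (adjusted p = 0.00953). Ifi204, a DNA sensor, was lower by 0.30 (adjusted p = 0.0196) and did not pass without replicate 2 or 5 (adjusted p 0.0509 and 0.0569).

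A list of other interferon-stimulated genes had 10 of 78 tested higher and 8 lower, with a median change of -0.019. These are 12.8% and 10.3% of the list, against 7.39% and 4.56% of all genes tested. The peptide transporter genes Tap1 and Tap2 were each higher by 0.56 (adjusted p = 0.000227 and 0.000726), and the immunoproteasome subunit Psmb9 by 0.40 (adjusted p = 0.0014). Shisa5, an apoptosis gene, was higher by 0.68 (adjusted p = 9.13e-05), and the RNA helicase Mov10 by 0.67 (adjusted p = 0.000945). On the other side, Cd274, which encodes the checkpoint ligand PD-L1, had a change of -0.59 (adjusted p = 0.000195), at 7.89 ± 0.19 with dexamethasone and 8.48 ± 0.15 with vehicle (SD, n = 6 each). The chemokine Ccl5 had a change of -0.38 (adjusted p = 0.0146) and the immunity-related GTPase Igtp one of -0.36 (adjusted p = 0.00192).

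**Figure D5:**
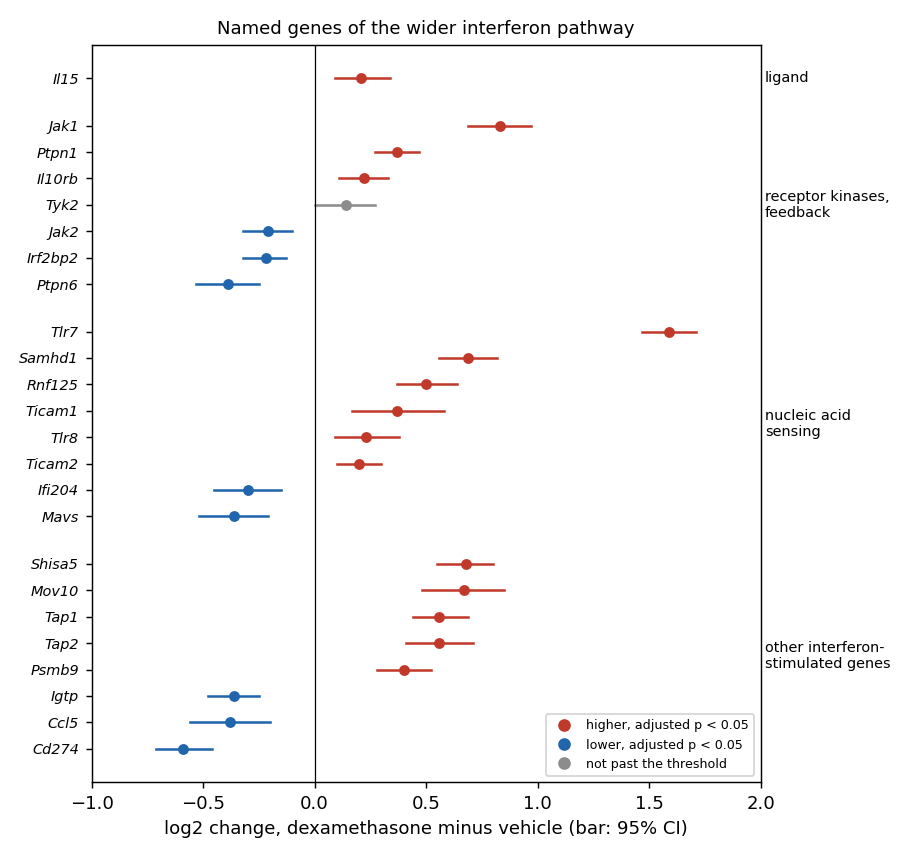
Change of named genes of the wider interferon pathway (log2, dexamethasone minus vehicle, horizontal axis) with 95% confidence intervals from limma, grouped as ligand, receptor kinases and feedback, nucleic acid sensing and other interferon-stimulated genes. Red genes passed as higher, up to Tlr7 at 1.59, blue genes passed as lower, down to Cd274 at -0.59, and the grey point is Tyk2, which did not pass.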

How the data were processed

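RNA of 12 one-colour arrays (6 dexamethasone, 6 vehicle) was measured after amplification of 50 ng of total RNA and biotin labelling, per the labels' protocols. The authors deposited log2 values made from the scanned arrays, and these were used as deposited. Their scale was read from the values, 2.07 to 19.93. Background correction, normalization and genome build were not given in the sources used here. Of 72688 probe sets, 30604 had 1 gene symbol and 2146 had several. RefSeq matched 22818 of the named probe sets by gene number and updated 827 symbols. Genes had to exceed the 25th percentile of their array on at least 6 of 12 arrays. Genes were fitted two-sided with lmFit and eBayes of limma 3.58.1 (R 4.3.3), with replicate number as a block, Benjamini-Hochberg over all 24265 genes tested, and a threshold of 0.05. This called 2900 genes, 1794 higher and 1106 lower, and the procedure was also tested on simulated data. Precision is limited by the number of arrays.

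The labels say that each culture was divided between the treatments. Deviations from group means correlated at 0.049 to 0.247 between arrays of the same number (mean 0.157, over 0.1 in 4 of 6 pairs). The mean for other numbers was -0.032. Deviations cancel within a group, so that mean depends on the first and is no separate evidence of pairing. Of the 6 dexamethasone arrays, 3 correlated best with the vehicle array of their own number.

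The 39 genes and all other lists were chosen with earlier results of these data known, and no list was tested as a set. Values by array were given for called genes and for Isg15, Mx1, Oas2, Irf7, Irf9, Stat2 and the 4 receptors. From other pathway lists, up to 8 called genes by size of change were named, plus Jak1 and Tyk2. From marker lists and glucocorticoid targets, up to 4 by mean level could be named. Ifit3b, Ifng, Ifna4, Gp9 and Tubb1 were singled out after their values were seen. Alternatives varied the block, normalization, filter, eBayes options, features fitted, probe set rule and the cultures included.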

Additional observations from a re-analysis of the deposited data

Results flagged for a closer look

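In each of the 38 measured genes, the 6 arrays of a treatment were searched for a single value apart from the other 5 by Dixon's gap over range at its 95% critical value. Of 76 combinations 4 passed, and chance passes about 1 in 20. For Trim25 with vehicle the ratio was 0.664, with culture 2 lowest at 10.80 and the next value at 11.12. Ifnar2 with vehicle had a ratio of 0.639, where culture 2 was again lowest, at 11.27 beside 11.47. Irf2 with vehicle gave 0.731, with culture 3 lowest at 10.0 beside 10.1. Oasl1 with dexamethasone gave 0.709, with culture 1 lowest at 4.89 beside 4.96, both below the background median of the negative controls. Without replicate 2 the change of Trim25 was 1.12 and remained past the threshold.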

How the results depend on the processing

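Over 16 alternatives, Ifit1, Ifit2, Gbp2 and Trim25 passed in 16 of 16, with changes of -1.13 to -0.98, -0.84 to -0.77, -0.51 to -0.41 and 1.12 to 1.21. Ifit3 passed in 15, Isg15 in 9, Ddx60 in 8 of 14 and Mx1 in 4 of 15, and Irf2 in 5, Parp14 in 2 and Bst2 in 1. Of 578 comparisons of the 37 genes, 545 kept their side of the threshold, 25 lost a call, 8 gained one, and no called gene changed sign. With all probe sets fitted, which adjusts over more features, 1215 named genes were called, 3 of the 37 were lower (Ifit3 had an adjusted p of 0.0604), interferons had 0 higher, kinases and feedback 1 lower, sensing 0 lower and 3 higher, and other interferon-stimulated genes 3 lower and 5 higher. Without the replicate block 6 of the 37 were lower, Mx1 being lost (adjusted p = 0.0617), 2 were higher, and 5 other interferon-stimulated genes were lower. Irf2 was the added higher gene there and with culture as a random effect, both stricter filters, and trend and robust options, where 2 were higher. Interferons had 1 lower gene under both stricter filters and under the random effect of culture. Quantile normalization gave 4 lower sensing genes and 0 higher interferons, and 44.9% of all calls were higher (1417 of 3155), against 61.9% as deposited and 70.3% after median centring (1718 of 2444), which left 4 other interferon-stimulated genes lower. The cause of these differences was not tested. Leaving out 1 culture in turn gave 1878 to 2331 calls, 4 to 5 lower and 1 to 2 higher among the 37, 0 to 1 interferons higher, 1 to 2 sensing genes lower and 3 to 5 higher, and 4 to 6 other interferon-stimulated genes lower. For 9 genes signal did not exceed the negative control median, which limits what their changes show. Ifit1, Ifit2, Ifit3 and Gbp2 exceeded that median on every array, but the 95th percentile of the negative controls on none.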
